A study of Mus musculus with 9 samples.

Results

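Heat shock proteins are molecular chaperones, and 10 genes of this group were followed in mouse pancreatic islets: the inducible and constitutive Hsp70s Hspa1a, Hspa1b and Hspa8, the Hsp110 gene Hsph1, the Hsp40 gene Dnajb1, the cytosolic Hsp90s Hsp90aa1 and Hsp90ab1, the small heat shock protein gene Hspb1, the mitochondrial chaperonin Hspd1, and Hsf1, the transcription factor of the heat shock response. They were chosen by gene symbol, 10 of the 23329 genes in the count table, and all 10 were among the 12402 that passed the filter on low counts. The choice was made with their values in this comparison known, so their differences between the groups are given as a description with no test. Polyadenylated RNA was sequenced in 9 islet libraries of male mice. The 5 libraries titled as mutants carry the genotype label Pdx1A4, which the labels leave unexplained, and the 4 titled as controls carry the label Pdx1+/-, so both groups are labelled by an allele of Pdx1, a homeodomain factor of the pancreas and of beta cells. No promoter, Cre driver, age or treatment is given for either group. Whether each library came from its own animal is also not stated, and the p-values then describe spread among libraries that may be technical.

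Chaperones bind unfolded or partly folded proteins and help them to fold, to be held in solution or to be handed on for degradation. Hsf1 is kept inactive by chaperones in unstressed cells. When unfolded proteins accumulate it forms trimers and binds repeats of the unit nGAAn (heat shock elements) in promoters. It thereby raises transcription of inducible members, among them Hspa1a, Hspa1b, Dnajb1 and Hsp90aa1, which is not a full list. Hspa8 and Hsp90ab1 are made at high level in most cells without stress. Beta cells make large amounts of secreted protein, which is folded in the endoplasmic reticulum by a separate set of chaperones that includes Hspa5 and Hsp90b1.

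Exact matches to the letters of heat shock elements were spread unequally over the promoter windows found for these genes. RefSeq promoter windows of GRCm38.p6, from 250 bases before to 50 bases after a start site, matched 6 of the 10 members with 9 windows. A choice of 5 stands here in 5' to 3' order of the gene, with capitals on matches to GAANNTTC or TTCNNGAA (2 alternating units) and to GAANNTTCNNGAA or TTCNNGAANNTTC (3 units). They were chosen as the windows of the members described most closely. Hspa1a lies at chr17:34972107-34972406 on the minus strand, Dnajb1 (first start) at chr8:83607925-83608224 on the plus strand, Hsph1 (first start) at chr5:149636287-149636586 on the minus strand, Hspb1 at chr5:135887669-135887968 on the plus strand, and Hspd1 (second start) at chr1:55087883-55088182 on the minus strand.
Hspa1a: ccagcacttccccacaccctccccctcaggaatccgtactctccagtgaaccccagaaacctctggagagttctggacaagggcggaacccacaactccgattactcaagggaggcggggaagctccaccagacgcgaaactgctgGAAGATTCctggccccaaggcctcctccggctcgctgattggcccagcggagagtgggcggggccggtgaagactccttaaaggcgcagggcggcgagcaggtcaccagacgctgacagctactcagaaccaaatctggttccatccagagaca
Dnajb1: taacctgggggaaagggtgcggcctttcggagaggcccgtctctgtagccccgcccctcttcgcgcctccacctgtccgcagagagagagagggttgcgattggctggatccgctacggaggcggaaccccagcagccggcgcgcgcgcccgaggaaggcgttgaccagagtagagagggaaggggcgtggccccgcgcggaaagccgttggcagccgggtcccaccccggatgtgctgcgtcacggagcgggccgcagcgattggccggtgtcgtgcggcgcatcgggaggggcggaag
Hsph1: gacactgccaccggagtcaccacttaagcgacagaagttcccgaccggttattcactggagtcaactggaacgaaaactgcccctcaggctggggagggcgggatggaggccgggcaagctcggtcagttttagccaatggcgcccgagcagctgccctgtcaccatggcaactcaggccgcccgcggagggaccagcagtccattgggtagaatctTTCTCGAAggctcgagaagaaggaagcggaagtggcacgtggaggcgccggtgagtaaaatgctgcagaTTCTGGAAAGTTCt
Hspb1: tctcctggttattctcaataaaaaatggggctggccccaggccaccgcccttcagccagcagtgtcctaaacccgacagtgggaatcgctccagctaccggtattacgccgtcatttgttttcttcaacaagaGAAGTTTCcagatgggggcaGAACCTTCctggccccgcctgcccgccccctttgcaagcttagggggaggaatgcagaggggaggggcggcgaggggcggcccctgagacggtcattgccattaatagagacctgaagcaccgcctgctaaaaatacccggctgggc
Hspd1: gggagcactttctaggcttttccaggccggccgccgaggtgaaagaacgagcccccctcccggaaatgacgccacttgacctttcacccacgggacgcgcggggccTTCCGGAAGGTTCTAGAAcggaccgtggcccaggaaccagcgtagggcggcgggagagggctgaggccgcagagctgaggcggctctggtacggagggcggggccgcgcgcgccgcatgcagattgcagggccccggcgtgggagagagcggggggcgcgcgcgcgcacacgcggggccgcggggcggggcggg

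The Hspa1a window held 1 match of 2 units, GAAGATTC, beginning 104 bases before the start site. The Hspa1b window (chr17:34959189-34959488, minus strand) held the same match at the same place and differed from that of Hspa1a at 4 of 300 bases, so 98.7% of its bases were identical. Hspb1 had 2 matches of 2 units, beginning 117 and 97 bases before its start. Hsph1 had a match of 3 units, TTCTGGAAAGTTC, beginning 36 bases after its first start, and Hspd1 had 2 overlapping matches of 3 units in the run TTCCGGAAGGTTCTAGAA before its second start. Neither Dnajb1 window and not the first Hspd1 window held these letters. Elements with other letters or spacing, and those outside the 300-base windows, were not searched for. A lack of matches thus does not show a lack of elements. Matches of 2 units occurred in 15.1% of all 32851 promoter windows and matches of 3 units in 0.603%, read on both strands, with each match of 3 units also containing matches of 2. CCAAT, in either direction, was in the Hspa1a, Hspa1b, Hsph1, first Dnajb1 and first Hspd1 windows and in 37.4% of all windows. Members with a match stood on both sides of the comparison described next, Hspa1a lower and Hspb1 higher in mutants.

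Hormone genes took a smaller and acinar genes a larger share of counts in the mutant libraries than in the controls. Summed counts were 7186462 to 9163253 per mutant library and 6092010 to 7375376 per control library. The 7 islet hormone genes took 0.0691% to 7.99% of counts in mutants and 16.9% to 21.0% in controls, and mutant 2 was the lowest. Acinar digestive enzyme and regulator genes took 12.4% to 22.2% of counts in mutants and 2.74% to 4.43% in controls, and 24 of the 25 were higher in mutants (edgeR). Of the 7 hormone genes edgeR called 0, with 1 lower at an unadjusted p under 0.05, DESeq2 called 6 lower and voom 1. Of 18 secretory granule genes edgeR called 6 lower and DESeq2 17, and of 10 ductal genes edgeR called 4 higher and 1 lower. In CPM (counts per library brought to one common size), 18 secretory granule genes summed to 220 to 12498 in mutants and 21345 to 27192 in controls, and 10 ductal genes to 16299 to 27939 in mutants and 4314 to 12381 in controls. The 11 macrophage genes summed to 309 to 560 CPM in mutants and 80.2 to 464 CPM in controls, and 10 endothelial genes to 8.36 to 94.8 CPM in mutants and 53.9 to 166 CPM in controls. The 10 stellate cell and fibroblast genes summed to 2.97 to 173 CPM in mutants and 57.4 to 119 CPM in controls, and 8 Schwann cell and neuron genes to 1.48 to 30.03 CPM in mutants and 29.3 to 38.9 CPM in controls. No marker was at 0 in every library. In bulk tissue fewer cells of a type and less RNA per cell cannot be told apart. The part of cell makeup in the values given next was not tested. Fits with marker scores are given as values, for some lists and near the end for the members. Pdx1 itself averaged 12.9 ± 6.91 CPM in mutants and 29.5 ± 5.54 CPM in controls (SD, n = 5 and 4), with a log2 fold change of -1.18 (edgeR adjusted p = 0.0461). Pdx1 missed the threshold in 6 of 9 fits without 1 library (each control, mutant 1, mutant 3), with an edgeR adjusted p of up to 0.113.

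The heat shock genes did not move as one group. The inducible Hsp70 gene Hspa1a and its Hsp40 partner Dnajb1 were lower in every mutant library than in any control, by 8.81-fold and 2.36-fold. The constitutive Hsp70 gene Hspa8, the small heat shock protein gene Hspb1 and the mitochondrial chaperonin Hspd1 were higher in every mutant library than in any control, by 1.95-fold, 4.64-fold and 1.52-fold. The groups overlapped for the other 5 members, the inducible Hsp90aa1 among them. By edgeR's call rule (adjusted p under 0.05 over all 12402 genes) 3 members were higher and 2 lower, beside 20.6% of all genes called higher and 11.8% called lower. Groups did not overlap for 5 members, beside 33.2% of all genes. The median log2 fold change was -0.07 over the members and 0.04 over all genes.

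**Figure D1:**
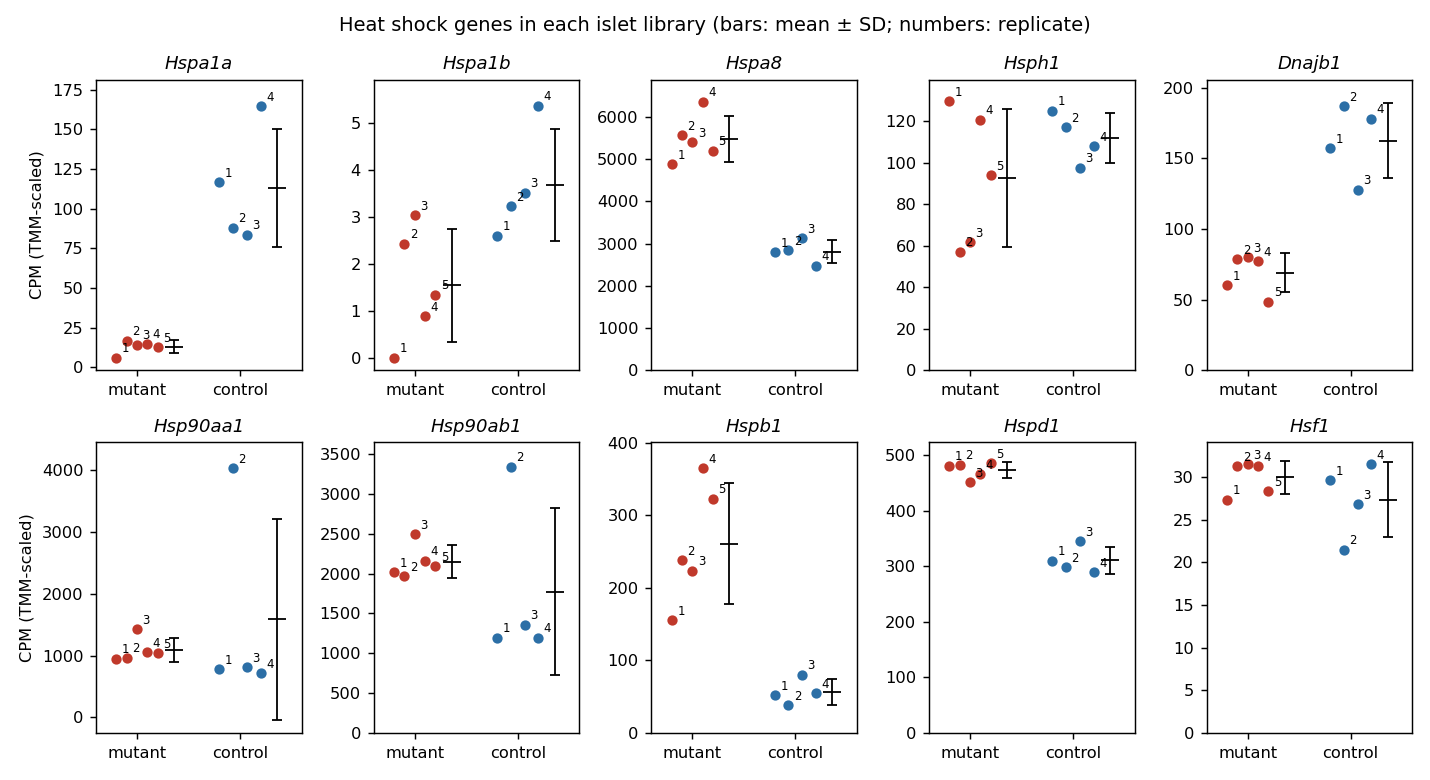
Level of each heat shock gene in each library, in TMM-scaled CPM on a linear axis, with the mutants on the left and the controls on the right of each panel. Points are libraries numbered by replicate and bars give mean ± SD; Hspa1a lies at 6.05 to 16.7 CPM in mutants and at 83.6 to 165 CPM in controls, and control 2 stands at 4031 CPM for Hsp90aa1.

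Hspa1a encodes the main stress-inducible cytosolic Hsp70, an ATP-driven chaperone that grips exposed hydrophobic stretches. It gave 50, 124, 93, 101 and 94 counts in mutants 1 to 5, against 852, 601, 714 and 1473 counts in controls 1 to 4. Scaled to library size, these were 6.05, 16.7, 14.1, 14.8 and 12.6 CPM in mutants, against 116, 87.9, 83.6 and 165 CPM in controls. The highest mutant lay far below the lowest control, mutant 1 was the lowest of all and control 4 the highest. The mean was 12.8 ± 4.08 CPM in mutants and 113 ± 37.3 CPM in controls (SD, n = 5 and 4), which gave a log2 fold change of -3.14 (standard error, SE, 0.31). Only 0.185% of all tested genes, 23 including Hspa1a, had a log2 fold change as low. The gene lies on chromosome 17, positions 34969359 to 34972156 of GRCm38 (mm10), in the major histocompatibility region.

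Hspa1b, a nearly identical Hsp70 gene that lies 10120 bases from Hspa1a on the same chromosome (positions 34956429 to 34959238), was counted rarely. It gave 0, 18, 20, 6 and 10 counts in mutants, against 19, 22, 30 and 48 counts in controls. Mutant 3, at 20 counts, exceeded control 1, at 19. The count of 0 in mutant 1 allows up to 0.363 CPM (3 counts, for counting error only). Means were 1.54 ± 1.21 CPM in mutants and 3.67 ± 1.19 CPM in controls, a log2 fold change of -1.27 (SE 0.71). Of all 50-base stretches of Hspa1a transcripts, 58.8% also occur in Hspa1b, so the authors' counting could have split or dropped reads between them. The rules it used for shared reads are not given in the sources used here. Added together, the pair stood at 6.05 to 19.1 CPM in mutants and at 87.1 to 170.0 CPM in controls.

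Hspa8, the constitutive cytosolic Hsp70 known as Hsc70, went the other way from Hspa1a. Its levels were 4888, 5565, 5403, 6363 and 5199 CPM in mutants, against 2790, 2847, 3125 and 2482 CPM in controls. All mutants lay above all controls, and each group was tight. The mean was 5483 ± 553 CPM in mutants and 2811 ± 264 CPM in controls (SD, n = 5 and 4), a log2 fold change of 0.96 with an SE of 0.20. The gene is on chromosome 9, positions 40801276 to 40805202. Identical 50-base stretches in other annotated transcripts cover 39.4% of its own, so its count is open to the handling of shared reads.

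Because both Hsp70s come from the same library, their ratio does not depend on scaling. There were 807, 333, 383, 431 and 413 Hspa8 counts per Hspa1a count in mutants, against 24.0, 32.4, 37.4 and 15.1 in controls. Every mutant ratio was well above every control ratio. Hspa1a made up 0.124% to 0.299% of the Hspa1a and Hspa8 counts in mutants and 2.61% to 6.22% in controls. The 10 members together took 0.761% to 0.970% of counts in mutants and 0.666% to 1.03% in controls, where control 2 was the highest of all. Hspa8 alone was 53.0% to 59.7% of the members' counts in mutants and 25.9% to 51.6% in controls.

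**Figure D2:**
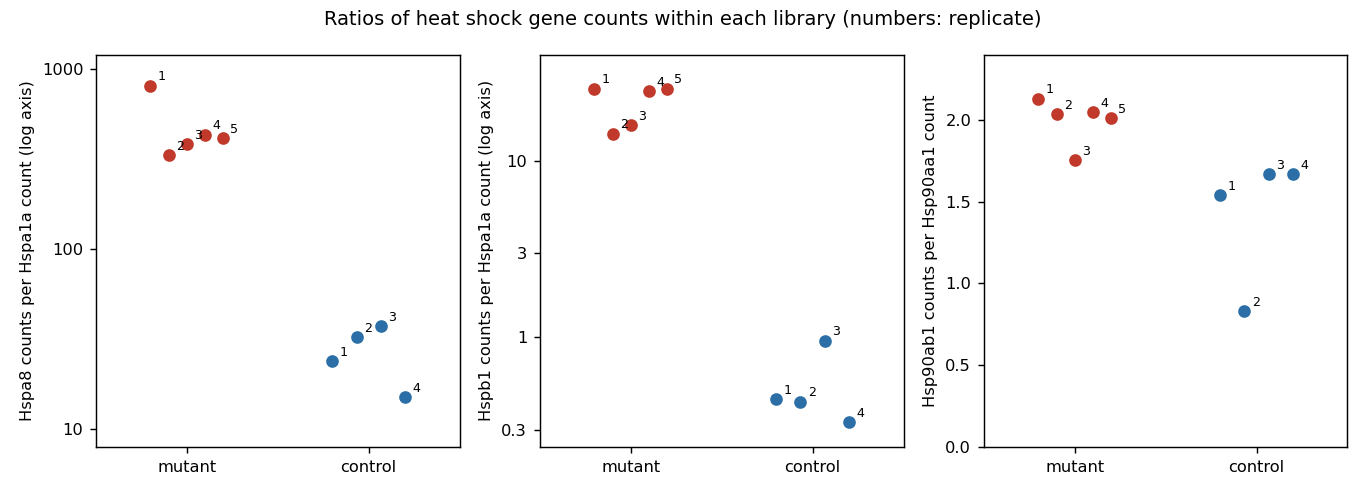
Ratios between heat shock gene counts within each library, with the mutants on the left of each panel; the first pair of panels have log axes and the right one a linear axis from 0. Points are libraries numbered by replicate: Hspa8 counts per Hspa1a count run from 333 to 807 in mutants and from 15.1 to 37.4 in controls, and Hsp90ab1 counts per Hsp90aa1 count are lowest in control 2, at 0.829.

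Dnajb1 encodes an Hsp40 of class B, which delivers clients to Hsp70 and starts its ATP hydrolysis, and it is itself heat-inducible. It stood at 60.3, 78.6, 79.9, 77.0 and 48.6 CPM in mutants, against 157, 187, 128 and 178 CPM in controls. No mutant reached any control. Means were 68.9 ± 13.9 CPM in mutants and 163 ± 26.3 CPM in controls, with a log2 fold change of -1.24 (SE 0.18). The gene is on chromosome 8, positions 83608175 to 83612653, and only 0.412% of its 50-base stretches occur in other transcripts. Across the 9 libraries the log2 CPM of Dnajb1 and Hspa1a had a Pearson correlation of 0.94, which includes the difference between the groups they share. After each group's mean was taken off it was 0.46.

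Hsph1, an Hsp110 that releases ADP from Hsp70 and so lets it drop its client, did not separate the groups. Its levels were 130, 57.2, 61.6, 121 and 94.1 CPM in mutants, against 125, 117, 97.6 and 108 CPM in controls. Mutants 2 and 3, in which hormone transcripts were scarcest, were the lowest, and mutant 1 was the highest of all 9. Means were 92.6 ± 33.1 CPM in mutants and 112 ± 11.9 CPM in controls, with a log2 fold change of -0.27 (SE 0.25). It lies on chromosome 5, positions 149616843 to 149636498.

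The cytosolic Hsp90 pair, which matures kinases and steroid receptors, turned on a single library. Hsp90aa1, the inducible form (chromosome 12, positions 110691036 to 110696395), was at 949, 966, 1425, 1057 and 1042 CPM in mutants, against 775, 4031, 815 and 717 CPM in controls. Hsp90ab1, the constitutive form (chromosome 17, positions 45567778 to 45573261), was at 2021, 1966, 2498, 2163 and 2095 CPM in mutants, against 1194, 3343, 1357 and 1196 CPM in controls. Control 2 was the highest of the 9 libraries for both genes, and each of the other 3 controls lay below every mutant.

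With all libraries Hsp90aa1 averaged 1088 ± 194 CPM in mutants and 1584 ± 1631 CPM in controls, with a log2 fold change of -0.54 (SE 0.51). Hsp90ab1 averaged 2148 ± 209 CPM in mutants and 1773 ± 1050 CPM in controls, with a log2 fold change of 0.28 (SE 0.32). Without control 2 the log2 fold change of Hsp90aa1 was 0.41, on the other side of 0, and that of Hsp90ab1 was 0.69. The genes moved together from library to library, with a Pearson correlation of 0.996 between their log2 CPM after each group's mean was taken off (9 libraries), a value that control 2 enters on both axes. Hsp90ab1 gave 1.75 to 2.13 counts per Hsp90aa1 count in mutants, against 0.829 in control 2 and 1.54 to 1.67 in the other controls. Other annotated transcripts share 47.5% of the 50-base stretches of Hsp90aa1 but 3.44% of those of Hsp90ab1, so the ratio is open to the handling of shared reads.

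Control 2 did not stand apart in the inducible Hsp70 system. Relative to the mean of the other 3 controls, on the log2 CPM scale, it was 2.39 higher for Hsp90aa1 and 1.42 higher for Hsp90ab1, but 0.29 higher for Dnajb1, 0.10 higher for Hsph1, 0.03 higher for Hspa8 and -0.41 for Hspa1a. Among all 12402 genes Hsp90aa1 ranked 67 and Hsp90ab1 464 by this difference. Among related genes it had 1027 CPM of the Hsp90 cochaperone Ptges3, 579 CPM of the Hsp40 gene Dnajb6 and 314 CPM of Hsbp1, a small protein that binds Hsf1 trimers. Ptges3, Dnajb6 and Hsbp1 lay 1.68, 1.70 and 1.23 above the mean of the other controls on the log2 scale. Hsf2, a relative of Hsf1, was 2.94 higher in control 2 on that scale. These genes were chosen after their values were seen, and related genes went both ways. Of other Hsp90 cochaperones Stip1 was at -0.13, Cdc37 at -0.30 and Fkbp4 at -0.22, but Chordc1 at 0.71 and Sugt1 at 0.91. The Hsp70 cofactor Bag3 was at -0.75. Pairs of controls that included control 2 differed by a chi-square of 54.3 to 81.1 per degree of freedom over genes, against 17.0 to 21.0 for the other control pairs.

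**Figure D3:**
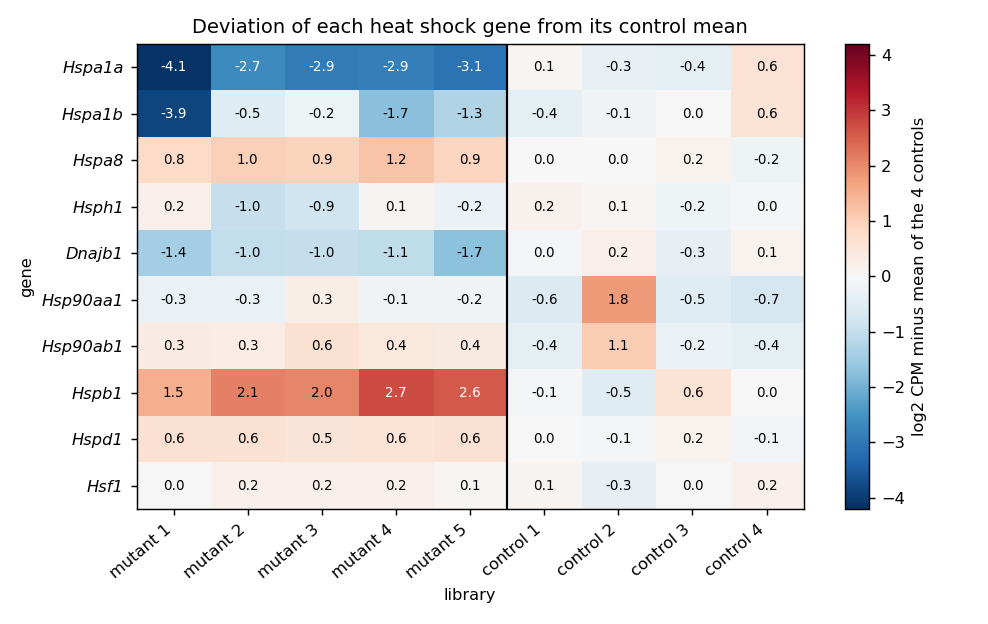
Log2 CPM of each heat shock gene in each library minus the mean of the 4 controls, with the 5 mutants to the left of the line and the 4 controls to the right (colour and printed value, log2 units). Hspa1a and Dnajb1 are below 0 and Hspa8, Hspb1 and Hspd1 above 0 in all 5 mutants, and among the controls the Hsp90 pair stands out in control 2.

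Hspb1 (Hsp25 in mice, Hsp27 in humans) encodes a small heat shock protein that holds unfolding proteins without ATP and binds the actin cytoskeleton. It had 156, 238, 224, 365 and 323 CPM in mutants, against 52.1, 38.0, 80.2 and 54.7 CPM in controls. Every mutant exceeded every control, and mutant 1 was the lowest mutant. The mean was 261 ± 83.3 CPM in mutants and 56.3 ± 17.6 CPM in controls (SD, n = 5 and 4), with a log2 fold change of 2.21 (SE 0.30). Hspb1 gave 14.3 to 25.7 counts per Hspa1a count in mutants and 0.332 to 0.959 in controls. It is on chromosome 5, positions 135887919 to 135889563, and 50.1% of its 50-base stretches also occur in other annotated transcripts.

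Hspd1 encodes Hsp60, which forms the folding chamber of mitochondria with the lid protein Hspe1. It was at 481, 482, 451, 465 and 486 CPM in mutants, against 310, 299, 345 and 289 CPM in controls. Both groups were narrow and did not meet, and 42.1% of the 50-base stretches of Hspd1 occur in other annotated transcripts. Means were 473 ± 14.5 CPM in mutants and 311 ± 24.3 CPM in controls, a log2 fold change of 0.61 (SE 0.12). Hspd1 (chromosome 1, positions 55077833 to 55088243) and Hspe1 (positions 55088148 to 55091317) overlap by 96 bases at their starts, where reads of the pair cannot be told apart if strand was ignored in counting, which no label or header states. Hspe1 averaged 135 ± 31.6 CPM in mutants and 102 ± 15.7 CPM in controls, a log2 fold change of 0.39 that did not pass (edgeR adjusted p = 0.133).

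Hsf1, the factor that acts on heat shock elements, was near the same level throughout, and its mRNA does not measure its activity, which is set after translation. It had 27.4, 31.3, 31.6, 31.3 and 28.4 CPM in mutants, against 29.7, 21.5, 26.8 and 31.5 CPM in controls. The groups overlapped, and control 2 was the lowest library. Means were 29.97 ± 1.96 CPM in mutants and 27.4 ± 4.36 CPM in controls, with a log2 fold change of 0.13 (SE 0.14), or -0.06 without control 2. The gene is on chromosome 15, positions 76477362 to 76501155.

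**Figure D4:**
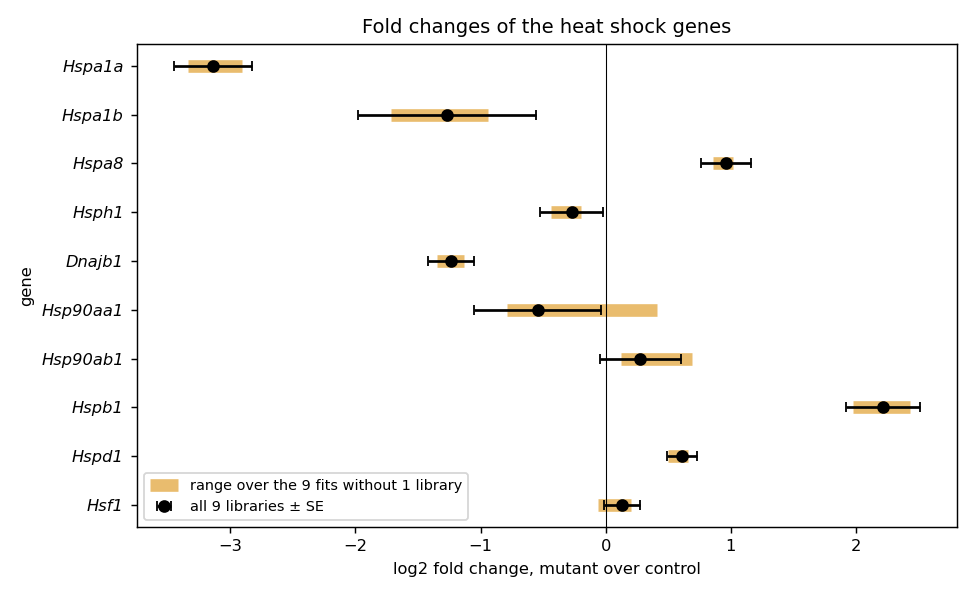
Log2 fold change, mutant over control, of each heat shock gene (x axis) with all 9 libraries (points, ± SE) and the range over the 9 fits that each left out 1 library (orange bars). The range for Hspa1a is -3.34 to -2.90, and the ranges of Hsp90aa1 and Hsf1 cross 0.

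Levels can be set beside each other between genes only per length of transcript, and the order also depends on how reads shared with other transcripts were counted. Per kilobase of exon, Hspa8 was the most abundant member in mutants, at 1275 ± 129 CPM per kb, followed by Hsp90ab1 at 716 ± 69.7, Hsp90aa1 at 277 ± 49.4, Hspb1 at 253 ± 80.8, Hspd1 at 179 ± 5.48, Dnajb1 at 21.5 ± 4.32, Hsph1 at 12.7 ± 4.56, Hspa1a at 4.33 ± 1.37, Hsf1 at 4.22 ± 0.276 and Hspa1b at 0.548 ± 0.432. Of these neighbours, Hsp90aa1 and Hspb1, Hspb1 and Hspd1, Dnajb1 and Hsph1, and Hspa1a and Hsf1 overlapped between libraries. In controls the order was Hspa8 at 654 ± 61.4 CPM per kb, Hsp90ab1 at 591 ± 350.0, Hsp90aa1 at 403 ± 415, Hspd1 at 118 ± 9.19, Hspb1 at 54.6 ± 17.0, Dnajb1 at 50.7 ± 8.20, Hspa1a at 38.1 ± 12.6, Hsph1 at 15.4 ± 1.63, Hsf1 at 3.86 ± 0.615 and Hspa1b at 1.31 ± 0.425. There Hspa8 and Hsp90ab1, the Hsp90 pair, Hspb1 and Dnajb1, and Dnajb1 and Hspa1a overlapped. By this measure Hspa1a was beside the rare Hsf1 transcript in mutants and beside Dnajb1 in controls. The lengths were unions of all annotated exons, at 7099 bases for Hsf1, 7266 for Hsph1 and 2967 for Hspa1a. A union can be longer than the transcript that is made, which would understate the level per kb. The order therefore also depends on the length used.

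The wider chaperone network, 131 other genes in 9 lists of which 115 were tested, changed in both directions. With edgeR 31 rose and 13 fell, which is 38.3% of those tested, beside 32.4% of all genes. The median log2 fold change was 0.18, beside 0.04 over all genes. The count of risen genes was 20 without control 1 and 20 without mutant 3. Some lists share genes, and the same change in exocrine and endocrine marker levels ran through these libraries, so the values for each list are descriptive.

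Among the other Hsp70s, 2 of 8 tested rose and 2 fell, 50% of them beside 32.4% of all genes (median log2 fold change -0.48). The fallen numbered 3 with RLE scaling and 4 with voom, and DESeq2 gave 4 of 11. Hspa4, an Hsp110 relative that exchanges nucleotide on Hsp70, rose to 180 ± 16.3 CPM in mutants, against 115 ± 9.06 CPM in controls (log2 fold change 0.65, edgeR adjusted p = 0.00561). Hspa13, an Hsp70 of the endoplasmic reticulum, fell by 1.01 on the log2 scale (edgeR adjusted p = 0.0138), and Hspa2, known for its role in the testis, fell by 1.61 (edgeR adjusted p = 0.0158). The mitochondrial Hsp70 gene Hspa9 rose by 0.61 (edgeR adjusted p = 0.014), a call lost without mutant 3 (edgeR adjusted p = 0.0587), which left 1 of the list risen. Hspa5, or BiP, the main Hsp70 of the endoplasmic reticulum, averaged 2853 ± 622 CPM in mutants and 3899 ± 303 CPM in controls and did not pass (log2 fold change -0.45, edgeR adjusted p = 0.127).

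Of the class A and B Hsp40s, 3 of 12 tested rose and 2 fell (median -0.00), 41.7% of them beside 32.4% of all genes. Of class C 4 of 29 rose and 4 fell, at 27.6% below the share of all genes. Its median was 0.09, or -0.01 with RLE scaling, with 2 risen. DESeq2 gave 2 risen and 7 fallen of class C, and voom 7 and 6. Dnaja2, which works with Hspa8, rose to 149 ± 12.4 CPM in mutants, against 96.1 ± 4.04 CPM in controls (edgeR adjusted p = 0.00476). Dnajb9, an Hsp40 of the endoplasmic reticulum, fell to 295 ± 122 CPM in mutants, against 707 ± 122 CPM in controls (edgeR adjusted p = 0.0102). Dnajc22 rose by 1.85 on the log2 scale (edgeR adjusted p = 0.00507) and Dnajc12 fell by 1.31 (edgeR adjusted p = 0.00423). Without 1 library the risen genes of classes A and B numbered 1 in 6 of the 9 fits (controls 1 to 3, mutants 2, 3 and 5) and those of class C numbered 2 in 7 of the 9 (all but control 3 and mutant 1).

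Of 23 Hsp90 paralogs and cochaperones, 7 rose and 2 fell, 39.1% of them beside 32.4% of all genes (median 0.22). Those that rose included Nudc (log2 fold change 1.07, edgeR adjusted p = 0.00152), the mitochondrial Hsp90 gene Trap1 (0.98, edgeR adjusted p = 0.00456) and Cdc37, which brings kinases to Hsp90 (0.57, edgeR adjusted p = 0.00775). Hsp90b1, the Hsp90 of the endoplasmic reticulum, fell to 720 ± 173 CPM in mutants, against 1462 ± 362 CPM in controls (edgeR adjusted p = 0.0102). Stip1, which links Hsp70 to Hsp90, averaged 154 ± 8.32 CPM in mutants and 133 ± 6.89 CPM in controls and did not pass (edgeR adjusted p = 0.143). Across the fits without 1 library, 5 to 8 of the list rose and 1 or 2 fell (1 without control 1, control 4, mutant 2, mutant 3 or mutant 4).

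Of 11 Hsp70 exchange factors and cofactors 4 rose and 2 fell, 54.5% of them beside 32.4% of all genes (median -0.08). The mitochondrial exchange factors Grpel2 and Grpel1 rose, by 1.29 and 0.88 on the log2 scale (edgeR adjusted p = 0.00335 and 0.00853). Bag3, an exchange factor for autophagy that is itself a target of Hsf1, fell to 24.7 ± 7.45 CPM in mutants, against 50.7 ± 15.0 CPM in controls (log2 fold change -1.04, edgeR adjusted p = 0.0159), with overlap between the groups. Bag2 fell by 0.87 (edgeR adjusted p = 0.0105). With the mean log2 CPM of the secretory granule genes as a covariate, 0 of this list rose and 0 fell (median -0.31). In that fit 0 of either Hsp40 list passed, and 1 of the other Hsp70s and 1 of the Hsp90 list rose, with 0 fallen.

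Of 4 other small heat shock proteins that were tested, 2 rose and 0 fell (median 0.56). This stands beside 20.6% of all genes risen and 11.8% fallen. Cryab, alpha-B crystallin, rose to 153 ± 92.9 CPM in mutants, against 25.8 ± 10.2 CPM in controls (log2 fold change 2.57, edgeR adjusted p = 0.00407). Hspb8, the partner of Bag3, rose to 103 ± 8.99 CPM in mutants, against 57.2 ± 8.50 CPM in controls (edgeR adjusted p = 0.00346). Both were higher in 5 of 5 mutants than in any control, as were 18.5% of all tested genes. Each fit without 1 library, DESeq2 and voom also gave 2 risen and 0 fallen, and 0 had fallen at an unadjusted p under 0.05. With the mean log2 CPM of the secretory granule genes as a covariate 1 rose. With that of the acinar genes 0 rose, as of all genes.

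Of 15 chaperonin and prefoldin genes that were tested, 7 rose (46.7%) and 0 fell (median 0.40). Of all genes 20.6% rose and 11.8% fell. Subunits of the cytosolic chaperonin that folds actin and tubulin were among them: Cct4 reached 390 ± 51.7 CPM in mutants, against 195 ± 31.0 CPM in controls (edgeR adjusted p = 0.00326), Cct5 had a log2 fold change of 0.80 and Tcp1 one of 0.69 (edgeR adjusted p = 0.00394 for Tcp1). Without control 1, 4 rose. At an unadjusted p under 0.05 edgeR had 8 higher and 0 lower. DESeq2 called 6 higher and 1 lower of 16, and voom 9 higher and 0 lower of 15. With the same granule covariate 2 rose, and with the acinar covariate 0 did.

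Of the 4 tested heat shock factors and regulators 0 passed with edgeR, DESeq2 or voom, and 1, Hsf2, was lower at an unadjusted p under 0.05 with edgeR. Without mutant 1, 1 was higher. Hsf2 averaged 6.83 ± 2.63 CPM in mutants and 20.5 ± 25.8 CPM in controls, a mean that control 2 raised (edgeR adjusted p = 0.0956). Among 27 heat-inducible genes outside the 10 members, some of which stand in the lists above, 11 rose and 2 fell (median 0.18), beside 20.6% of all genes risen and 11.8% fallen, which lean the same way. With the granule score as a covariate 3 rose, and with the acinar score none of the list or of all genes passed. Without control 1, 6 of them rose, and without mutant 3, 7. In each fit without control 1, 3 or 4 or without mutant 3 or 5, 1 fell.

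**Figure D5:**
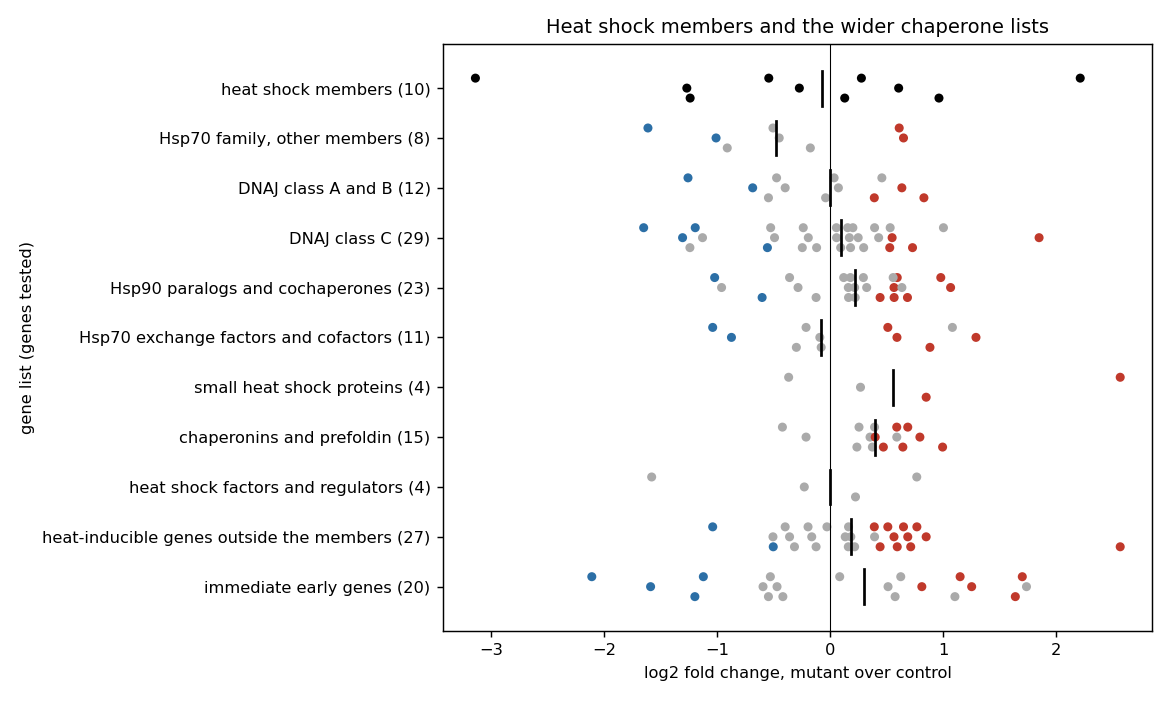
Log2 fold change, mutant over control, of the heat shock members (black, no test) and of each tested gene in 10 lists of related genes (red rose, blue fell, grey did not pass edgeR's adjusted threshold). Vertical bars are medians: 0.40 for the chaperonins and prefoldin, -0.48 for the other Hsp70s and -0.07 for the members.

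Immediate early genes, which answer within minutes to many stimuli including tissue dissociation, were read beside the inducible heat shock genes. Of 20 tested 5 rose and 4 fell, 45% of them beside 32.4% of all genes (median 0.30 beside 0.04 over all genes, or -0.01 with DESeq2, which fitted 21). Klf6 (log2 fold change 1.64, edgeR adjusted p = 0.00193) and Myc (1.70) rose, and Nr4a1 (-2.11, edgeR adjusted p = 0.00147), Socs3 (-1.20) and Junb (-1.12, edgeR adjusted p = 0.0139) fell. Atf3 also rose, by 1.15 on the log2 scale (edgeR adjusted p = 0.0245), with every mutant above every control. Its call was lost without any single control and without mutant 3, with an edgeR adjusted p of up to 0.0682. Fos averaged 41.2 ± 31.9 CPM in mutants and 62.1 ± 13.1 CPM in controls, Jun 134 ± 65.6 CPM in mutants and 193 ± 54.7 CPM in controls, and Egr1 29.1 ± 12.9 CPM in mutants and 42.5 ± 24.8 CPM in controls, and none of these passed (edgeR adjusted p = 0.292, 0.268 and 0.37). The summed level of the list was 1343 to 3398 CPM in mutants and 1426 to 1769 CPM in controls, so it overlapped, and its part in the Hspa1a difference was not tested. Without control 1, control 3 or mutant 3, 3 of the list rose.

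The genes whose log2 CPM followed that of Hspa1a most closely over the 9 libraries, among 11504 genes, were Gys1 (glycogen synthase of muscle and other tissues; Pearson 0.982), Kcnh1 (a potassium channel; 0.973), Rhobtb1 (0.967), Ip6k2 (an inositol hexakisphosphate kinase; 0.954) and Cebpd (a transcription factor of inflammation; 0.950). All 5 were lower in every mutant than in any control, as Hspa1a was, beside 14.7% of all tested genes. The difference between the groups thus enters each value. Cebpd was at 79.8 ± 9.24 CPM in mutants and 265 ± 48.2 CPM in controls, and Kcnh1 at 3.69 ± 0.670 CPM in mutants and 11.2 ± 1.57 CPM in controls.

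The members' log2 fold changes were also fitted with a marker score in the model, and are given as values. With the mean log2 CPM of the secretory granule genes as a covariate, they were -3.58 for Hspa1a (SE 0.43), -1.45 for Dnajb1 (SE 0.26), 0.94 for Hspa8 (SE 0.24), 2.27 for Hspb1 (SE 0.39) and 0.60 for Hspd1 (SE 0.17). These 5 kept their direction and nearly their size. By edgeR's call rule, read as a description only, Hspa1a, Dnajb1 and Hspb1 were called there and Hspa8 and Hspd1 were not, beside 4.35% of all genes. The members were chosen with their values known, so these calls do not test the part of cell makeup. Hspa1b stood at -2.72 (SE 0.96) in that fit, further from 0 than without the score, and Hsph1 at 0.32 (SE 0.21), on the other side of 0. With the acinar score as a covariate the SEs were several times wider, and 0 of all genes met edgeR's threshold (278 genes higher and 159 lower at an unadjusted p under 0.05). Hspa8 came to 0.23 (SE 0.65) in that fit, Hspb1 to 1.30 (SE 1.06), Hspd1 to 0.61 (SE 0.46), Hspa1a to -4.37 (SE 1.35), Dnajb1 to -2.49 (SE 0.69) and Hspa1b to -5.00 (SE 3.26). Hsp90aa1 came to -1.64 (SE 2.13), and Hsph1, at 0.96 (SE 0.94), Hsp90ab1, at -0.36 (SE 1.30), and Hsf1, at -0.12 (SE 0.58), changed sides of 0. Group membership accounts for 93.7% of the variance of the acinar score and 49.8% of that of the granule score, so with the acinar score the group and the score cannot be told apart. In the fit that dropped both mutant 2 and mutant 3, values were -3.42 for Hspa1a, -2.39 for Hspa1b, -1.45 for Dnajb1, 0.91 for Hspa8, 2.25 for Hspb1 and 0.56 for Hspd1.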

How the data were processed

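Polyadenylated RNA from islets of male mice was measured in 5 mutant and 4 control libraries, prepared with a low-input NEBNext kit per the labels' protocols. The authors deposited whole-number counts per gene symbol, without normalization. Per the submitters' processing notes the project used build mm10, the aligners STAR and Bowtie2, the quantifier RSEM, DESeq2 under R 4.1.0, HOMER, and the single-cell tools Cell Ranger, Seurat and Signac, with no role given to any. The aligner, counter and strand setting behind these counts are not given in the sources used here. How these islets were cultured could not be read from the growth label, which covers several materials.

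Groups and replicate numbers came from titles and genotype labels. Within a group, no pair of libraries differed by as little as sampling noise (chi-square of at least 17.0 per degree of freedom over genes), so none was a copy of another. Counts were fitted for all genes with edgeR 4.0.16 (R 4.3.3): filterByExpr, TMM scaling, the quasi-likelihood test of mutant over control, Benjamini-Hochberg adjustment and a two-sided threshold of 0.05. The SE is the unshrunken log2 fold change over the root of F. Library sizes for CPM were TMM-scaled, with a prior count of 2 on the log2 scale. Lengths are exon unions of GENCODE M21, from which shared 50-base stretches were also counted, and coordinates are RefSeq's for GRCm38.

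The members and the gene lists were chosen with earlier results of these data known. Named beside the members were up to 3 genes of lowest p in each direction from each list, 16 fixed chaperone and immediate early genes, Pdx1, and the 5 genes most correlated with Hspa1a. The text gives part of them, and genes chosen after their values were seen are marked. The alternatives tried were RLE scaling, TMM without acinar and hormone genes, no low-count filter, DESeq2 1.42.0, limma 3.58.1 voom with quality weights, the replicate number as a block, marker scores as covariates, each library left out, and mutants 2 and 3 left out. The test was tried on simulated data.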

Additional observations from a re-analysis of the deposited data

Results flagged for a closer look

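In 11 of 126 groups of libraries examined over the named genes, 1 library lay farther from the rest than expected of a single sample; chance alone marks about 1 group in 20. All values are log2 CPM. Hspa1a in mutant 1 was low at 2.66, with the nearest mutant at 3.68. Hsp90aa1 in mutant 3 was high at 10.48, with the nearest mutant at 10.05. Control 2 was high for Hsp90aa1, at 11.98 with the nearest control at 9.67, and for Hsp90ab1, at 11.71 with the nearest at 10.41. Control 2 was also low for Cdc37, at 6.42 with the nearest at 6.70. The remaining values were those of Hspa2 in mutant 2 (low, 0.80), Jund in mutant 1 (low, 3.42), Socs3 in mutant 2 (low, 2.57), Fos in mutant 4 (high, 6.62), Rhobtb1 in mutant 4 (high, 4.76) and Ip6k2 in control 1 (high, 3.96).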

How the results depend on the processing

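With all libraries and edgeR, 2560 genes were higher and 1462 lower in mutants, 63.6% of the calls higher; RLE scaling gave 51.8% and DESeq2 49.6%, each moving the median log2 fold change of all genes by -0.10, and no low-count filter gave 56.6%. DESeq2 called 2584 genes lower and voom 2294. Libraries of the same replicate number had correlations of deviations of 0.05, -0.02, 0.18 and -0.05 (numbers 1 to 4). These values cannot show whether the libraries were paired, as pairs of unlike number were not compared. With the number as a replicate block, and mutant 5 left out, 1645 genes were higher and 772 lower, and 20 network genes higher and 8 lower. The acinar score as a covariate left 0 genes higher and 0 lower, 0 and 0 of the network (1 and 0 at an unadjusted p under 0.05) and 0 and 0 of the members (0 and 2). The granule score left 475 genes higher and 64 lower, and 5 network genes higher and 0 lower (23 and 7 at an unadjusted p under 0.05). It left 1 member higher, Hspb1, and 2 lower, Hspa1a and Dnajb1, as a description with no test. Without mutants 2 and 3, 1355 genes and 17 network genes were higher. Leaving out 1 library gave 1579 to 2702 genes higher, 699 to 1865 lower, 20 to 34 network genes higher, 10 to 14 lower, 3 or 4 members higher and 2 lower. Control 1 (1678 higher, 699 lower) and mutant 3 (1579 higher, 900 lower) moved these most. Over the named genes, 951 of the gene and alternative combinations stayed the same, 135 lost the call, 8 gained it, 11 moved and 28 reversed. For genes other than the members, the same meant an unchanged direction and side of the threshold. For the members it meant an unchanged direction and a log2 fold change that shifted by less than the pooled SD within groups. A larger shift of a member was labelled moved, and a member's gain or loss of the call was not labelled. The causes were not tested. Reversed log2 fold changes were, with voom, Hsp90aa1 at 0.33; with the granule score, Hsph1 at 0.32 and Hspe1 at -0.041; and, leaving out 1 library, Hsp90aa1 (-0.79 to 0.41) and Hsf1 (-0.062 to 0.20), both without control 2. With the acinar score they were Hsph1 0.96, Hsp90ab1 -0.36, Hsf1 -0.12, Hspa13 0.72, Hspa5 0.0085, Hspe1 -0.65, Dnajb9 0.49, Dnajc12 0.021, Dnajc15 -0.55, Dnajc18 0.0021, Dnajc24 0.013, Trap1 -0.52, Unc45a 1.17, Grpel1 -0.67, Bag2 0.10, Bag3 1.17, Cct4 -0.16, Klf6 -0.22, Myc -0.47, Nr4a1 0.021, Socs3 0.017, Atf3 -0.51 and Pdx1 0.98. Hspa1a ranged from -4.37 to -2.90 and Dnajb1 from -2.49 to -1.13 over all alternatives. Depth limits Hspa1b, at 0 to 48 counts a library.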
